A study of Saccharomyces cerevisiae with 2 samples.

Results

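Stretches of DNA without a nucleosome call were described in 2 lists of nucleosome positions from budding yeast (Saccharomyces cerevisiae). One list came from wild-type cells of strain BY4741, a common haploid laboratory strain, and the other from a fun30D mutant of BY4741, which lacks the chromatin remodelling enzyme Fun30. Each genotype was represented by 1 library. Cells of both genotypes had been grown in YPD, a rich medium, and fixed with paraformaldehyde, and mononucleosomal DNA was sequenced after digestion of crude nuclei with micrococcal nuclease, which cuts linker DNA between nucleosomes. A long stretch was chosen by the distance between the centres of neighbouring calls of the same library, which had to be 800 bp or more on chromosomes 1 to 16. The surroundings of the deleted FUN30 gene on chromosome 1 were left out. The rule kept 1198 of 47978 intervals in wild type (2.5%) and 1143 of 48108 in the fun30 deletion library (2.38%). Number and length of the stretches are therefore descriptions and carry no test, and with 1 library per genotype no test between genotypes was possible.

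A nucleosome wraps a little less DNA than the usual distance between neighbouring centres in yeast, so nucleosomes normally follow each other closely over genes. Promoters are known for short nucleosome-free regions beside the transcription start, and remodellers of the Snf2 family, to which Fun30 belongs, slide nucleosomes or exchange their subunits. A stretch without calls in a sequenced library is not the same as naked DNA. Nucleosomes that are weak or irregularly placed may escape a caller, and DNA that occurs in several copies, such as retrotransposons, ribosomal DNA and subtelomeric repeats, may be empty where reads matching several places are discarded. The sources used here do not say how such reads were treated, and which of these applies to a given stretch was not tested.

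The median distance between neighbouring centres was 170 bp in both libraries. The long stretches covered 1711 kb in wild type and 1665 kb in the fun30 deletion library, or 14.4% and 13.98% of the 11916 kb between the outermost calls of the chromosomes. The middle stretch of the wild-type list was 998 bp long and the quartiles were 872 and 1247 bp. For fun30D the median was 1009 bp and the quartiles were 889.5 and 1299.5 bp. Measured between the edges of the flanking calls, the median call-free length was 884.2 bp for wild-type stretches and 890.5 bp for those of fun30D. Just inside the threshold, from 800 to below 850 bp, there were 243 wild-type and 196 mutant stretches, and just outside it, from 750 to below 800 bp, 276 and 307 intervals.

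The lengths fell into a large group of short stretches and a small separate group of very long ones. Below 3000 bp there were 1136 stretches in wild type (94.8% of the total) and 1083 in fun30D (94.8%), and their number dropped steeply with length. Only 14 and 13 stretches had a length from 3000 to below 5000 bp. Above that the number rose again, with 48 stretches of 5000 bp or more in wild type and 47 in fun30D. The wild-type list held nothing between 4792 and 5640 bp, and the mutant list nothing between 4691 and 6142 bp. Of the very long stretches, 34 in wild type and 33 in fun30D were below 8 kb, with medians over the whole group of 7236 and 7066 bp. They were 4.01% of the wild-type stretches but held 24.3% of their DNA (416 kb), and the mutant values were 4.11% and 24.3% (404 kb).

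**Figure D1:**
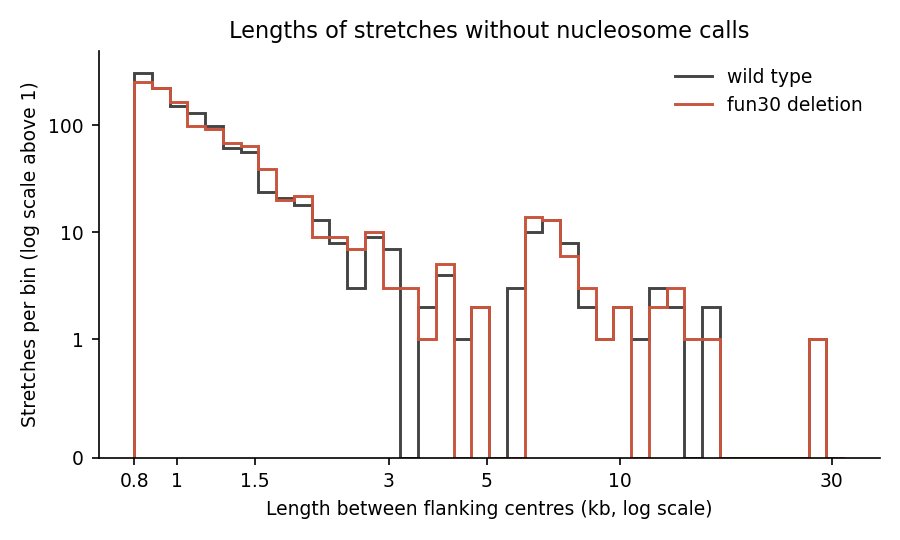
Number of stretches per length bin in the wild-type and the fun30 deletion library, with the length between flanking centres in kb on a log axis and the number on a scale that is linear from 0 to 1 and logarithmic above. Both outlines fall from 0.8 to about 3 kb, thin out up to 5 kb and rise to a second mode between 6 and 8 kb, and both end in a single stretch of 29 kb.

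The 10 longest stretches of each library were largely at the same places. The longest lay on chromosome 12 from 460474 to 489571 in wild type, 29097 bp, and from 460517 to 489563 in fun30D, 29046 bp. Its left flank had an occupancy signal of 1.30 in wild type and 4.06 in fun30D, and its right flank 0.374 and 0.167. Occupancy is the authors' strength of a call, on a scale whose median over all calls was 0.210 in both libraries. A second stretch ended just before it, from 450936 to 459888 in wild type (8952 bp) and from 450920 to 459887 in fun30D (8967 bp). The call at its right end, at 459888 in wild type and 459887 in fun30D, had an occupancy of 29.39 in each library, the highest value in either list, where the next highest were 14.08 and 14.09. The signal had nearly the same quantiles in both libraries, so the equal values show equal rank and not equal strength. Chromosome 12 carries the ribosomal DNA array of yeast, and positions on it are marked as uncertain for repeated sequence.

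On chromosome 1 a stretch ran from 210482 to 227011 in wild type and from 210489 to 227016 in fun30D, and the lengths of 16529 and 16527 bp differed by 2 bp. It lay within 20 kb of the outermost call, where repeated sequence makes placement uncertain, and all 4 flanking calls were weak, with occupancies of 0.157, 0.159, 0.169 and 0.167. Away from chromosome ends, the stretch on chromosome 4 from 871210 to 884725 measured 13515 bp in wild type and 13496 bp in fun30D. On the same chromosome another from 980785 to 992837 measured 12052 and 12024 bp. On chromosome 10 a stretch from 472300 to 484057 measured 11757 bp in wild type and 11759 bp in fun30D, with flanking occupancies of 0.211 and 0.472 in wild type and 0.214 and 0.455 in fun30D. Flanks of these 3 stretches differed by 6 to 16 bp between the libraries, so that DNA of more than 11 kb was empty in both lists with nearly identical limits.

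Other very long stretches had limits that differed between the libraries. On chromosome 4 near the end, wild type had 10995 bp without calls from 5593 to 16588, and the fun30D library 14102 bp from 2486 to 16588. Wild type had 2 calls inside the mutant stretch, and the stronger, at 5593, had an occupancy of 0.208. On chromosome 8 the pair of stretches on either side of the calls at 541157 (wild type, occupancy 0.105) and 541309 (mutant, 0.364) measured 10055 and 12556 bp in wild type and 10206 and 13105 bp in fun30D. On chromosome 7 the stretch from 811183 to 824170 in wild type measured 12987 bp, and a mutant call at 824084 with an occupancy of 0.146 ended it at 12916 bp. On chromosome 4 a stretch that began at 527923 in wild type and 527938 in fun30D measured 10310 and 10410 bp. On chromosome 10 the wild-type list had 16243 bp without calls from 729066 to 745309. This stretch was closed by the last wild-type call of the chromosome, with an occupancy of 0.109, whereas the last mutant call of the chromosome was at 727855.

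Whether the other library had the same stretch was asked next, since its calls had no part in choosing a stretch. A call counted as inside when its centre lay more than 73 bp, about the radius of a nucleosome, inwards from both flanking centres. A stretch counted as the same when no call was inside, both bounding centres of the other library were within 73 bp of the flanks, and the distance was again 800 bp or more. Ranges beside shares are exact (Clopper-Pearson) 95% intervals and cover counting error over stretches only. The same stretch was found for 338 wild-type stretches (28.2%, 25.7 to 30.9%), and these make up 29.6% of the mutant stretches (26.9 to 32.3%). A further 212 wild-type stretches (17.7%) lay inside a longer mutant interval with no call inside, and 174 mutant stretches (15.2%) lay inside a longer wild-type interval. These shares were near those of intervals of 500 to below 800 bp, with 17.4% in wild type and 17.9% in fun30D. Bounds were kept but the distance dropped under 800 bp at 25 wild-type and 15 mutant stretches. No call lay beyond one side in the other library for 2 and 3 stretches.

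The other library had at least 1 call inside 621 of the 1198 wild-type stretches (51.8%, 48.96 to 54.7%), beside 41% of the 2858 wild-type intervals of 500 to below 800 bp. For the mutant stretches it was 613 of 1143 (53.6%, 50.7 to 56.6%), beside 40% of the 2853 mutant intervals of that length. Longer intervals offer more room for a call, and whether this accounts for the difference was not tested. A piece of 800 bp or more was left between or beside the inside calls at 210 wild-type (17.5%) and 243 mutant stretches (21.3%), and no such piece was left at 411 (34.3%) and 370 (32.4%). Of intervals of 500 to below 800 bp, 32.5% in wild type and 30.9% in fun30D had inside calls and no piece of 500 bp or more left. Bounds kept with no call inside were seen for 363 wild-type stretches (30.3%) and 353 mutant stretches (30.9%), beside 41.6% and 42.1% of the intervals of 500 to below 800 bp. The counting intervals of the libraries overlapped for the share with a call inside and for every state. A long piece beside inside calls was left at 17.5% (15.4 to 19.8%) of wild-type and 21.3% (18.9 to 23.7%) of fun30D stretches, and 17.7% (15.6 to 19.98%) and 15.2% (13.2 to 17.4%) lay inside a longer interval. With 1 library per genotype these differences have no replicate check. The same stretches are the same 338 pairs in both libraries, so their shares differ only through the totals. A call-free distance of 800 bp or more remained in the other library for 760 wild-type stretches (63.4%) and 755 mutant stretches (66.1%).

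The outcome changed with length, in part by definition, since 1 call leaves 800 bp free more often in a longer stretch. Between the classes of 800 to below 1000 bp and 1500 to below 3000 bp, calls inside became more common. Stretches with a call inside rose from 49.5% to 63.8% in wild type and from 50.6% to 65.6% in fun30D. The same stretch fell from 29.6% to 20% and from 31.8% to 18.4%. At 5000 bp or more, 35.4% and 40.4% had a call inside. From 800 to below 1000 bp, 277 of 602 wild-type stretches had calls inside and no long piece left (46.01%), and 249 of 551 mutant stretches (45.2%). From 1000 to below 1500 bp these shares were 29.37% of 429 and 26.8% of 407 stretches. Of 1500 to below 3000 bp, 97 of 105 wild-type stretches (92.4%) and 112 of 125 mutant stretches (89.6%) still had 800 bp or more without a call in the other library. Of 5000 bp or more, none lost it to inside calls. In wild type 16 of 48 were the same in fun30D, 14 lay inside a longer stretch, 17 had calls inside beside a long piece, and the stretch at the end of chromosome 10 had no closing call. The 47 mutant stretches divided into 16, 12 and 19 in the same order. A call-free piece of 5000 bp or more was present in the other library for 46 of the 48 and for 46 of the 47.

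**Figure D2:**
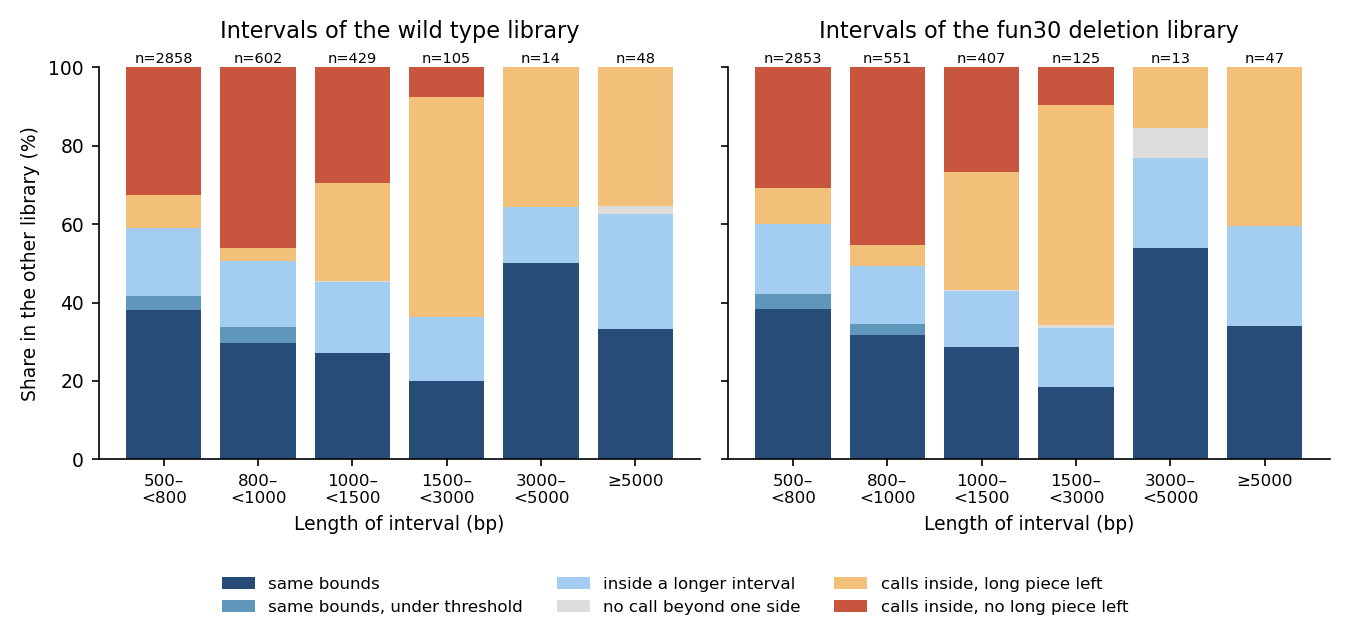
Share of intervals, in percent, by what the other library had at the same place, for intervals of the wild-type (left) and the fun30 deletion library (right) in 6 length classes in bp, with the number of intervals above each bar. A long piece is 500 bp or more in the class of 500 to below 800 bp and 800 bp or more in the others; calls inside with no long piece left take 46.01% of wild-type stretches of 800 to below 1000 bp and none of 3000 bp or more.

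Calls of the other library were sparse inside the stretches, and sparser in those of 3000 bp or more than in shorter ones. Over the whole lists there were 4.03 calls per kb in wild type and 4.04 in fun30D. Inside intervals of 500 to below 800 bp the other library had 1.07 calls per kb in wild-type intervals and 1.00 in mutant intervals. In stretches of 800 to below 1000 bp the values were 0.905 (0.818 to 0.998, exact Poisson interval for counting error) and 0.884 (0.795 to 0.98). In stretches of 1500 to below 3000 bp they were 0.572 (0.470 to 0.691) and 0.578 (0.482 to 0.687). From 3000 to below 5000 bp they were already 0.119 (0.0435 to 0.258), from 6 mutant calls, and 0.0637 (0.0131 to 0.186), from 3 wild-type calls. In stretches of 5000 bp or more they were 0.0538 (0.0337 to 0.0814), from 22 mutant calls, and 0.0679 (0.0448 to 0.0989), from 27 wild-type calls. The interval of the very long stretches thus lay below that of the stretches of 800 to below 3000 bp in both libraries, where the values were 0.788 (0.736 to 0.843) and 0.783 (0.730 to 0.838).

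**Figure D3:**
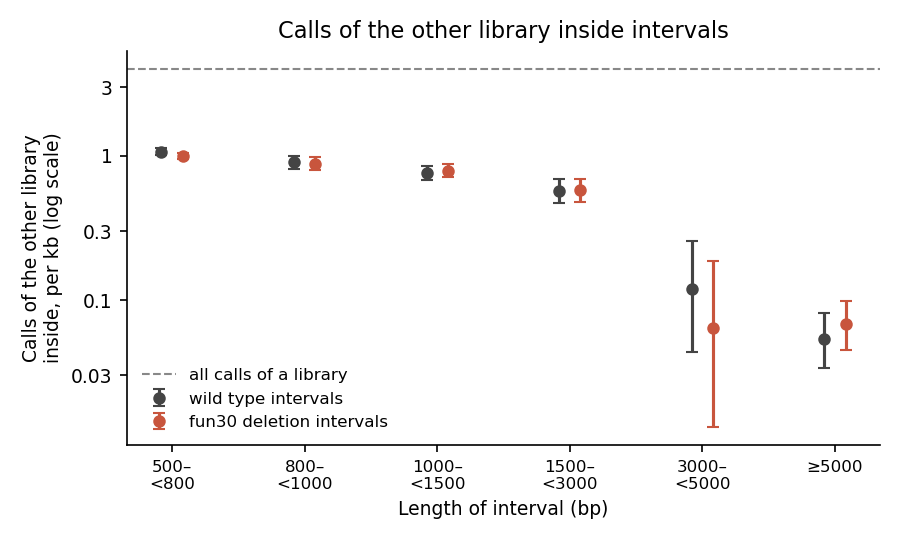
Calls of the other library per kb of DNA inside an interval (log scale) by length of the interval in bp, for intervals of the wild-type (grey) and the fun30 deletion library (red), with exact 95% Poisson intervals as bars; the dashed line marks all calls of a library. Values are about 1 call per kb in intervals of 500 to below 800 bp, 0.119 and 0.0637 from 3000 to below 5000 bp, and 0.0538 and 0.0679 at 5000 bp or more.

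The few calls inside very long stretches kept to their margins. Of the 22 mutant calls inside wild-type stretches of 5000 bp or more, 18 lay within 1000 bp of a flanking centre and 2 more than 2000 bp from it, the farthest at 2815 bp. Of the 27 wild-type calls inside mutant stretches, 22 lay within 1000 bp and 2 beyond 2000 bp, the farthest at 3107 bp. The middle of these stretches was therefore nearly empty in both lists. With the calls of both lists put together, 758 stretches of 800 bp or more were left, with 1212 kb or 10.2% of the span, and 47 of these were 5000 bp or more.

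Inside calls were weak. The 877 mutant calls inside wild-type stretches had a median occupancy of 0.107, with quartiles of 0.0930 and 0.130, and the 855 wild-type calls inside mutant stretches a median of 0.107, with quartiles of 0.0940 and 0.131. The lowest occupancy in either list was 0.0824. Of the inside calls, 671 (76.5%) and 654 (76.5%) were below the lower quartile of occupancy of their library, and 33 (3.76%) and 35 (4.09%) were above its median. Weak inside calls were not particular to long stretches. The strongest call inside had a median of 0.115 for wild-type and 0.114 for mutant stretches, beside 0.112 and 0.112 for intervals of 500 to below 800 bp. Most stretches with a call inside had a single one: 425 wild-type stretches held 1 mutant call, 147 held 2 and 49 held 3 or more. In the fun30D library 419 stretches held 1 wild-type call, 149 held 2 and 45 held 3 or more.

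The strongest calls inside a stretch were above the median occupancy of all calls. The mutant call at 78838 on chromosome 3 was the strongest (0.516) and lay inside a wild-type stretch from 78047 to 79116. On chromosome 4 a mutant call at 1308614 had an occupancy of 0.491, inside a wild-type stretch from 1307746 to 1308693. It lay 79 bp inwards of the right flank, just past the limit for counting as inside, and left 869 bp free. The third strongest was the mutant call at 541309 on chromosome 8 (0.364), which lay 152 bp inwards of the left flank of the wild-type stretch of 12556 bp. On chromosome 16 a mutant call at 802471 (0.356) split a wild-type stretch of 881 bp from 801776 to 802657. On chromosome 10 a mutant call at 605181 (0.333) shortened a stretch of 1304 bp to 1071 bp, and on chromosome 7 one at 648437 (0.317) split a stretch of 846 bp near its middle.

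The strongest wild-type calls inside mutant stretches were likewise above that median. On chromosome 10 a call at 154448 had an occupancy of 0.459 in wild type, inside a mutant stretch of 2413 bp from 152509 to 154922 that held 2 wild-type calls. On chromosome 4 the call at 561529 (0.429) and on chromosome 2 the call at 591308 (0.426) lay 84 and 79 bp inwards of a flank, and 819 and 1010 bp stayed free beside them. The call at 451362 on chromosome 8 (0.412) lay 137 bp from the right flank and left 801 bp. Towards the middle of mutant stretches were the calls at 471861 on chromosome 4 (0.368), 396 bp from the left flank, and at 709470 on chromosome 7 (0.362), which left 1042 bp of a stretch of 1740 bp.

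Calls that flank a stretch were then compared with all calls, since occupancy had no part in the rule. The 2323 flanking calls of wild type had a median occupancy of 0.170, with quartiles of 0.116 and 0.274, beside 0.210 over all calls with quartiles of 0.133 and 0.370. The 2219 flanking calls of the fun30D library had a median of 0.171, with quartiles of 0.118 and 0.282. Of the flanks, 1453 (62.5%) and 1368 (61.6%) were below the median of their library. Calls that flank intervals of 500 to below 800 bp were about as weak, with medians of 0.172 in wild type and 0.174 in fun30D. The next 4 calls outwards had medians of 0.187 to 0.195 in wild type and 0.187 to 0.197 in fun30D, between the flanks and all calls. The median width of the flanks differed by at most 1 bp from the 113 bp of all calls.

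Flank strength went with what the other library had, but these classes are themselves defined by the flanks. The same stretch needs a call within 73 bp of both flanks, and a longer interval has none that near to at least 1 flank. How much of the contrast follows from this was not tested. Stretches found as the same in both libraries had a median flank occupancy of 0.1996 in wild type and 0.198 in fun30D. Stretches that lay inside a longer interval of the other library had medians of 0.131 and 0.130. Stretches with calls inside and no long piece left had medians of 0.166 and 0.161. The contrast was also seen within length classes. From 800 to below 1000 bp it was 0.196 for the same stretch against 0.132 inside a longer one in wild type, and 0.207 against 0.130 in fun30D. From 1000 to below 1500 bp it was 0.204 against 0.131 and 0.194 against 0.129.

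**Figure D4:**
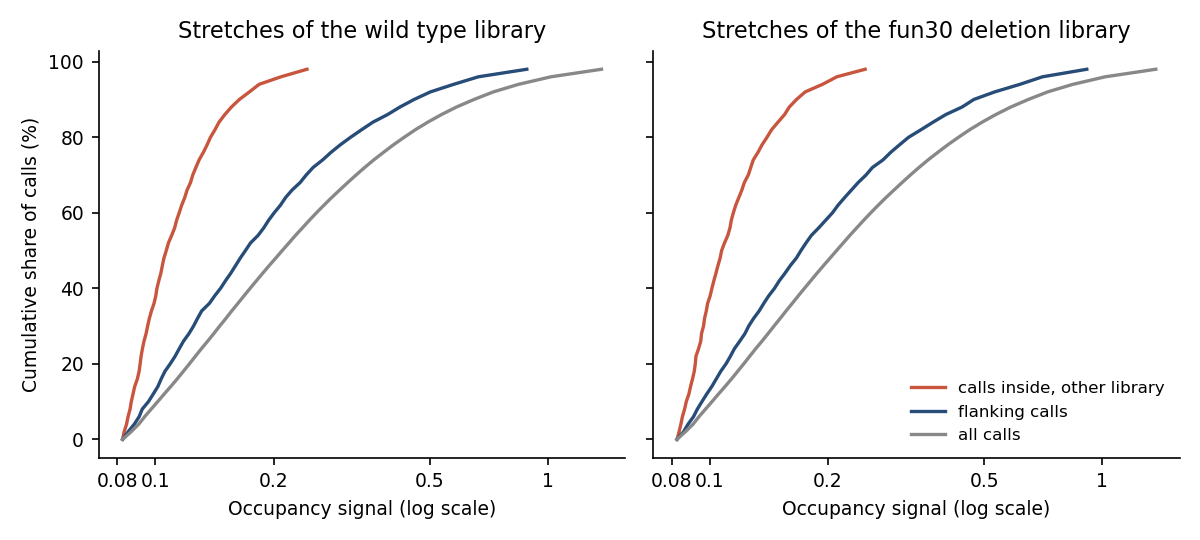
Cumulative share of calls, in percent, by occupancy signal (log scale, up to the 98th percentile) for all calls of a library, for the calls that flank its long stretches and for the calls of the other library inside them, with wild-type stretches on the left and fun30 deletion stretches on the right. The curve of inside calls lies furthest to the left (median 0.107), that of the flanks in between (0.170 and 0.171) and that of all calls to the right (0.210).

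A flanking call had a partner in the other library, each nearest to the other and within 73 bp, in 79.3% of cases in wild type and in 80.4% in fun30D, beside 85% and 84.8% of all calls. Flanks of intervals of 500 to below 800 bp lay between, with 82.2% and 82.8%. For flanks of stretches of 5000 bp or more it was 62 of 93 (66.7%) in wild type and 68 of 91 (74.7%) in fun30D. Of the paired flanks, 494 of 1843 wild-type ones (26.8%, 24.8 to 28.9%) and 469 of 1785 mutant ones (26.3%, 24.2 to 28.4%) were displaced by 20 bp or more, beside 26.6% of all pairs. An occupancy difference of 2-fold or more was seen at 95 (5.15%, 4.19 to 6.26%) and 87 (4.87%, 3.92 to 5.98%), beside 4.87% of all pairs. Both shares were near the background, and many flanks belong to the sets of both libraries.

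At the strongest flanks the bounding call of the other library lay within 2 bp, except for the left flank of the longest stretch on chromosome 12, where it lay 43 bp away. After the call at 459888 on chromosome 12, the strongest wild-type flank was at 81537 on the same chromosome, with an occupancy of 4.42 in wild type and 4.92 at the same centre in fun30D. It closed a stretch of 1082 bp in wild type and 1057 bp in fun30D. On chromosome 4 the call at 427430 had 2.46 in wild type and 2.52 in fun30D, also at the same centre, and closed stretches of 835 and 825 bp. On chromosome 15 the call at 231640 had an occupancy of 2.53 beside a wild-type stretch of 1011 bp, which a mutant call of 0.110 at 231984 split. On chromosome 13 the call at 59077 had 2.23 beside a wild-type stretch of 1238 bp with 3 mutant calls inside, the strongest at 0.138. On chromosome 12 the wild-type call at 725380 had 2.56 beside a stretch of 859 bp. In the fun30D library the call at 389732 on chromosome 9 had 3.45 and closed a stretch of 835 bp with a wild-type call of 0.104 inside, and the call at 517332 on chromosome 5 had 1.92 beside a stretch of 855 bp.

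The 338 stretches present in both lists had nearly the same length in each. The absolute difference had a median of 17 bp and quartiles of 6 and 36 bp. The largest differences were 100 bp shorter and 97 bp longer in fun30D. Of these stretches 160 were longer in fun30D, 169 were shorter and 9 had equal lengths. The tolerance of 73 bp at each flank limits the difference, so this closeness follows in part from the definition. Of their 676 flanks 27.4% differed by 20 bp or more. Among the 16 of 5000 bp or more the differences ran from 51 bp shorter to 73 bp longer. On chromosome 15 a stretch chosen after its values were seen had all 4 flanks above an occupancy of 0.6: it ran from 969803 to 973873 in wild type and from 969793 to 973862 in fun30D, with occupancies of 0.754 and 0.746 in wild type and 0.748 and 0.616 in fun30D.

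Along the chromosomes the stretches were common near the ends. Of the wild-type stretches 110 (9.18%, 7.61 to 10.96%) had their midpoint within 20 kb of the outermost call of the chromosome, beside 4.1% of all wild-type intervals. In the fun30D library it was 106 (9.27%, 7.66 to 11.1%), beside 4.12%. Within 5 kb of the outermost call 39 of 374 wild-type intervals were long stretches (10.4%, 7.52 to 13.98%) and 40 of 367 mutant intervals (10.9%, 7.90 to 14.5%). At 30 to 50 kb it was 1.87% (1.39 to 2.45%) and 1.596% (1.16 to 2.14%), and beyond 100 kb 2.42% and 2.36%. Long stretches made up 41.8% of the DNA within 5 kb of the outermost call in wild type and 43.4% in fun30D, beside 13.5% and 13.5% beyond 100 kb. By length, the share within 20 kb of an outermost call was 6.98% of wild-type and 6.35% of fun30D stretches of 800 to below 1000 bp, and 19.05% and 17.6% of those of 1500 to below 3000 bp. Of 3000 to below 5000 bp, 5 of 14 and 4 of 13 lay there. Of 5000 bp or more it was 5 of 48 (10.4%, 3.47 to 22.7%) and 4 of 47 (8.51%, 2.37 to 20.4%), close to the share of all long stretches.

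**Figure D5:**
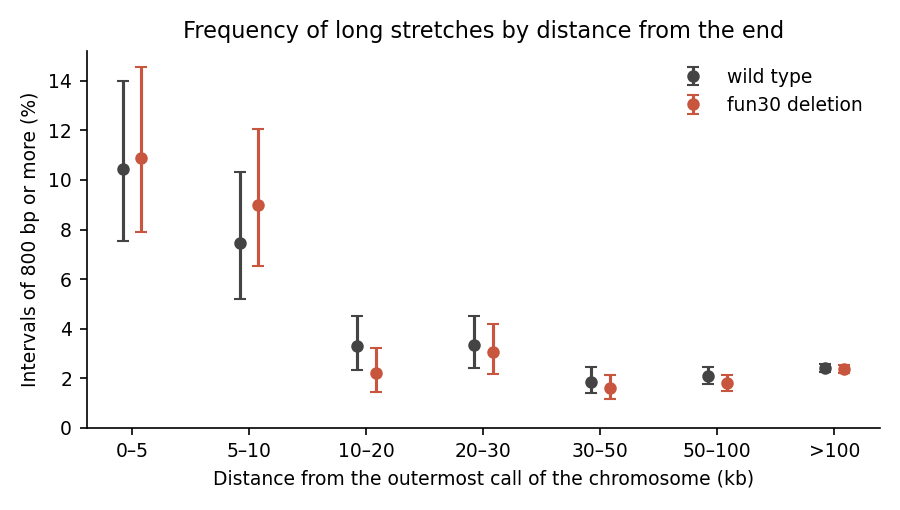
Share of intervals that were 800 bp or longer, in percent with exact 95% intervals, by distance in kb of the midpoint from the outermost call of the chromosome, for the wild-type (grey) and the fun30 deletion library (red). The share is 10.4% and 10.9% within 5 kb and between 1.596% and 3.35% beyond 10 kb.

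By chromosome the density in wild type ran from 7.98 stretches per 100 kb on chromosome 14 to 14.8 on chromosome 1, and in fun30D from 8.19 on chromosome 13 to 12.97 on chromosome 3. Chromosome 1 had 34 wild-type and 24 mutant stretches, chromosome 11 had 71 and 57, and chromosome 12 had 107 and 91. The order was reversed on chromosome 3 with 35 and 41, chromosome 6 with 28 and 32, and chromosome 7 with 108 and 112. Wild type had more stretches on 10 chromosomes, fewer on 5 and as many on 1. By length, long stretches took up the largest share of chromosome 1, with 27.4% in wild type and 22.7% in fun30D, and the smallest on chromosome 14 in wild type (10.8%) and on chromosome 11 in fun30D (9.49%). Chromosomes 9 and 11 had no stretch of 5000 bp or more in either library, whereas chromosome 4 had 8 and chromosome 12 had 7 in each.

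The stretches were spread over most of the genome and gathered at some places. Of 593 windows of 20 kb, 65 (11.0%) held no part of a wild-type stretch and 80 (13.5%) none of a mutant stretch, and the median window held 2. The number per window in one library correlated with that in the other with r = 0.67 across windows, which share sequence and are not independent. At most 8 stretches fell in a window, in wild type on chromosome 1 from 1 to 20000 and in fun30D on chromosome 6 from 1 to 20000. Apart from the window on chromosome 12 from 460001 to 480000, the emptiest was on chromosome 4 from 1 to 20000, with 16.4 kb in long stretches in wild type and 16.5 kb in fun30D. Away from ends the window on chromosome 16 from 840001 to 860000 held 14.6 and 13.8 kb, and that on chromosome 7 from 560001 to 580000 held 14.5 and 13.6 kb.

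Some stretches followed each other directly, with 1 call between them. There were 73 such calls in wild type and 67 in fun30D, in 64 and 59 runs of adjoining stretches. The calls between stretches were weak, with median occupancies of 0.136 and 0.134. Of them, 47 (64.4%) and 43 (64.2%) had a partner in the other library. The shares were 79.3% and 80.4% for all flanking calls and 85% and 84.8% for all calls. Whether low occupancy accounts for this was not tested. The run with the largest number of stretches in wild type had 4 and lay on chromosome 14 from 7783 to 16396, tied with one on chromosome 7 from 401136 to 405792. In the fun30D library a run of 5 lay on chromosome 6 from 6193 to 14597. On chromosome 8 a wild-type run of 3 stretches covered 25315 bp from 528398 to 553713. These runs were named as extremes after their values were seen.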

How the data were processed

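The submitters' processing notes name Bowtie 0.12.7, a short-read aligner. Per the file headers, the deposited tables give chromosome, centre, width and an occupancy signal for every nucleosome call, with 1 table per library. The sources used here do not give the authors' caller, the scaling of this signal, the number of reads or the genome build, so depth is unknown and positions are those of the files. The signal had nearly the same quantiles in both libraries, so between them it compares ranks. No gene was assigned and no sequence printed, because no genome of the build was used here.

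Intervals between neighbouring centres were taken per library, and those around the deleted FUN30 gene on chromosome 1 were left out. Ends are the outermost calls of either library, since chromosome lengths were not used. Inside calls, pairs and states in the other library were computed with Python 3.11.15, pandas 2.3.3 and SciPy 1.17.1. In simulated regular lists all 285 planted states were recovered, which checks the code and not how reliably states are assigned in these lists. The members, definitions and lists were chosen with earlier results of these data known. Named were the 10 longest stretches per library, the 6 longest that were the same, and the 6 with the strongest inside call and the strongest flank. Places within 20 kb of an outermost call and on chromosome 12 are uncertain for repeated sequence. Alternatives changed the threshold, the tolerance, the calls used and the places.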

Additional observations from a re-analysis of the deposited data

How the results depend on the processing

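With a threshold of 1000 bp the stretches numbered 596 in wild type and 592 in the fun30 deletion library. With 700 bp they numbered 1745 and 1717, as the length distribution implies. The other alternatives moved the numbers by less than 1.5 times. The same stretch was found for 31.2% of wild-type stretches at 700 bp, for 25.5% of wild-type and 25.7% of mutant stretches at 1000 bp, for 22.5% and 23.5% with a tolerance of 40 bp, and for 32.6% and 34.1% with 100 bp. A call inside was seen for 56.5% and 58.6% with a tolerance of 40 bp, for 48.2% and 49.4% with 100 bp, and for 50.5% of mutant stretches at 700 bp. When only inside calls above the lower quartile of occupancy counted, it fell to 15.5% and 16.2%, because most inside calls were weaker. The share near ends became 11.4% and 11.99% at 1000 bp, 6.01% and 6.999% within 10 kb, and 12.6% in both libraries within 30 kb. The tolerance and end-distance moves follow from the definitions; for the threshold moves of shares the cause was not tested. The median flank occupancy ran from 0.167 to 0.172 over both libraries and the 4 alternatives run for it. No paired analysis was possible because there was 1 library per genotype and no result comes from a test. The lists hold calls at or above an occupancy of 0.0824, so weaker nucleosomes inside a stretch could not be seen.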

Other observations

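DNA outside the outermost calls was not counted among the stretches, because it has only 1 flank. The first call of either library lay below 2000 bp on 9 of 16 chromosomes and above 4000 bp on 7. It was farthest in on chromosome 9, at 19632, and on chromosome 10, at 19593. In the fun30 deletion library the first call was at 19659 on chromosome 9, and in wild type at 19614 on chromosome 10, so both lists began there at nearly the same place. On chromosome 5 the lists differed, the first wild-type call lying at 6713 and the first fun30D call at 1713.

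Inside stretches below 3000 bp, calls of the other library were described by their distance from the nearer flank. From 74 to below 120 bp there were 135 mutant calls in wild-type stretches, or 1.29 per kb of DNA at that distance, and from 140 to below 190 bp there were 122, or 1.07 per kb. From 240 to below 290 bp there were 62 (0.546 per kb), and from 290 to below 350 bp 116 (0.851 per kb). For wild-type calls in mutant stretches the same distances gave 1.23, 1.14, 0.683 and 0.677 per kb.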
